A study of Homo sapiens with 4 samples.

Results

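A total of 45 genes of protein folding, quality control and degradation in the endoplasmic reticulum (ER) were taken by symbol from the 60671 genes of the count table. All 45 had an Ensembl row, and 43 were expressed highly enough to be tested in SK-N-BE(2) cells, a human neuroblastoma line. The cells expressed a short hairpin RNA, which was either the negative control (shNC) or directed at METTL14 (shMETTL14), with 2 libraries in each group and no other treatment named. METTL14 is a subunit of the methyltransferase that writes N6-methyladenosine (m6A) on RNA. According to the methods of the study, hairpins were delivered by the pLKO.1 lentiviral vector and infected cells were selected with puromycin, so each group is a pool of infected cells of 1 line, and both groups had passed through infection and selection. The labels do not say which METTL14 hairpin was used.

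Proteins that enter the secretory pathway fold in the ER with the help of chaperones, of enzymes that form disulfide bonds, and of lectins that hold immature glycoproteins. When unfolded protein accumulates, the sensors ATF6 and IRE1 (encoded by ERN1) raise the transcription of this machinery: ATF6 is cut by Golgi proteases into an active transcription factor, and IRE1 splices XBP1 mRNA so that it encodes an active factor. Proteins that fail to fold are returned to the cytosol and destroyed by ER-associated degradation (ERAD). Neuroblastoma cells, which derive from the sympathoadrenal lineage, use this system to make receptors and granule proteins.

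ATF6 and XBP1 act through short promoter elements, which are shown first because they occur both in members that rose and in members that fell. The ER stress response element (ERSE) was searched as 19 bases that begin with CCAAT and end with CCACG, the ERSE-II as 11 bases (ATTGG, any base, CCACG), and the core of the unfolded protein response element (UPRE) as TGACGTGG, on both strands of RefSeq promoters (GRCh38.p14, 250 bases before to 50 bases after each annotated start, all starts of a gene pooled). Of the members, 42 had a promoter in that table and 11 of these (26.2%) held an exact ERSE or ERSE-II, against 44 of 27305 genes (0.161%) overall. These elements were originally described in promoters of such genes, so the share is a description of the members and not an independent result. The capitals mark the fixed letters of each element.

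HSPA5, ERSE, chr9:125241385-125241414, minus strand: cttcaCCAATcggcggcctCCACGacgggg
HSP90B1, ERSE, chr12:103930211-103930240, plus strand: cctgaCCAATcggaaggagCCACGcttcgg
CALR, ERSE, chr19:12938379-12938408, minus strand: caccgaCCAATgatggtcgaCCACGcgtgg
CRELD2, ERSE, chr22:49918549-49918578, minus strand: tatggcCCAATccgagttcgCCACGagagg
PDIA6, ERSE, chr2:10812847-10812876, minus strand: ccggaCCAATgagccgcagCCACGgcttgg
CANX, ERSE, chr5:179698773-179698802, plus strand: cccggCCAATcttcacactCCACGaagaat
XBP1, ERSE, chr22:28800597-28800626, minus strand: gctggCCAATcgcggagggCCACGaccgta
SDF2L1, ERSE-II, chr22:21642105-21642134, minus strand: gagggttttgATTGGtCCACGcttccgagg
HYOU1, ERSE-II, chr11:119057264-119057293, plus strand: gcgcgtactcATTGGaCCACGtcccaggcc
HERPUD1, ERSE-II, chr16:56932016-56932045, plus strand: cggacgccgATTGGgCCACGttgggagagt

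Depth was even, with 18925786 to 19886214 reads counted in genes per library. METTL14 fell to 41.7% of the control level, with 37.8 and 39.4 CPM (read counts scaled to a common library size) in the shNC libraries against 15.5 and 16.7 CPM in the shMETTL14 libraries (log2 fold change -1.26, SE 0.0832, edgeR adjusted p 3.6e-11). All 10 neuroblastoma markers examined were expressed, and their summed level was 5560 to 5689 CPM in shNC and 5542 to 5594 CPM in shMETTL14 libraries, although 8 of them, DBH and TH included, were called lower and 2 higher. Of 8 fibroblast and mesenchymal markers tested, 1 was higher and 5 were lower, with sums of 592 to 609 CPM in shNC and 547 to 558 CPM in shMETTL14 libraries. Among them, PDGFRA fell from 16.5 CPM in each shNC library to 3.12 and 4.42 CPM (-2.13 on the log2 scale, edgeR adjusted p 6.6e-11) and COL3A1 from 30.6 and 27.8 CPM to 16.9 and 17.0 CPM (-0.79, adjusted p 1.4e-07). Of the epithelial and the immune or endothelial markers, 1 each was lower. What part these differences had in the results below was not tested. Genes of plasma cells and B cells, which are rich in ER, had 9 to 19 reads per library in all over 10 markers, and JCHAIN, MS4A1, TNFRSF17 and POU2AF1 had none. In such bulk libraries a change in the share of a cell type cannot be told apart from a change in RNA per cell. Nothing in the labels says that the 2 libraries of a group came from separate cultures, so the errors below may be technical.

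Most of the ER folding machinery was more abundant after METTL14 knockdown. Of the 43 tested members, 26 rose, 8 fell and 9 did not pass the test at an edgeR adjusted p under 0.05, so 60.5% were higher and 18.6% lower. Among all 16309 genes tested, 27.2% were called higher and 25.3% lower, and with upper quartile scaling, which moved the balance most, 3550 were higher and 4961 lower. With a change of at least 1.5-fold also required, 11 members rose, where 7.44% of all genes tested did, and 1 fell, where 11.4% did. The median log2 fold change was 0.38 over the members and -0.0010 over all genes tested. The groups did not overlap for 38 of the 43 tested members, and for 75.5% of all genes tested.

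**Figure D1:**
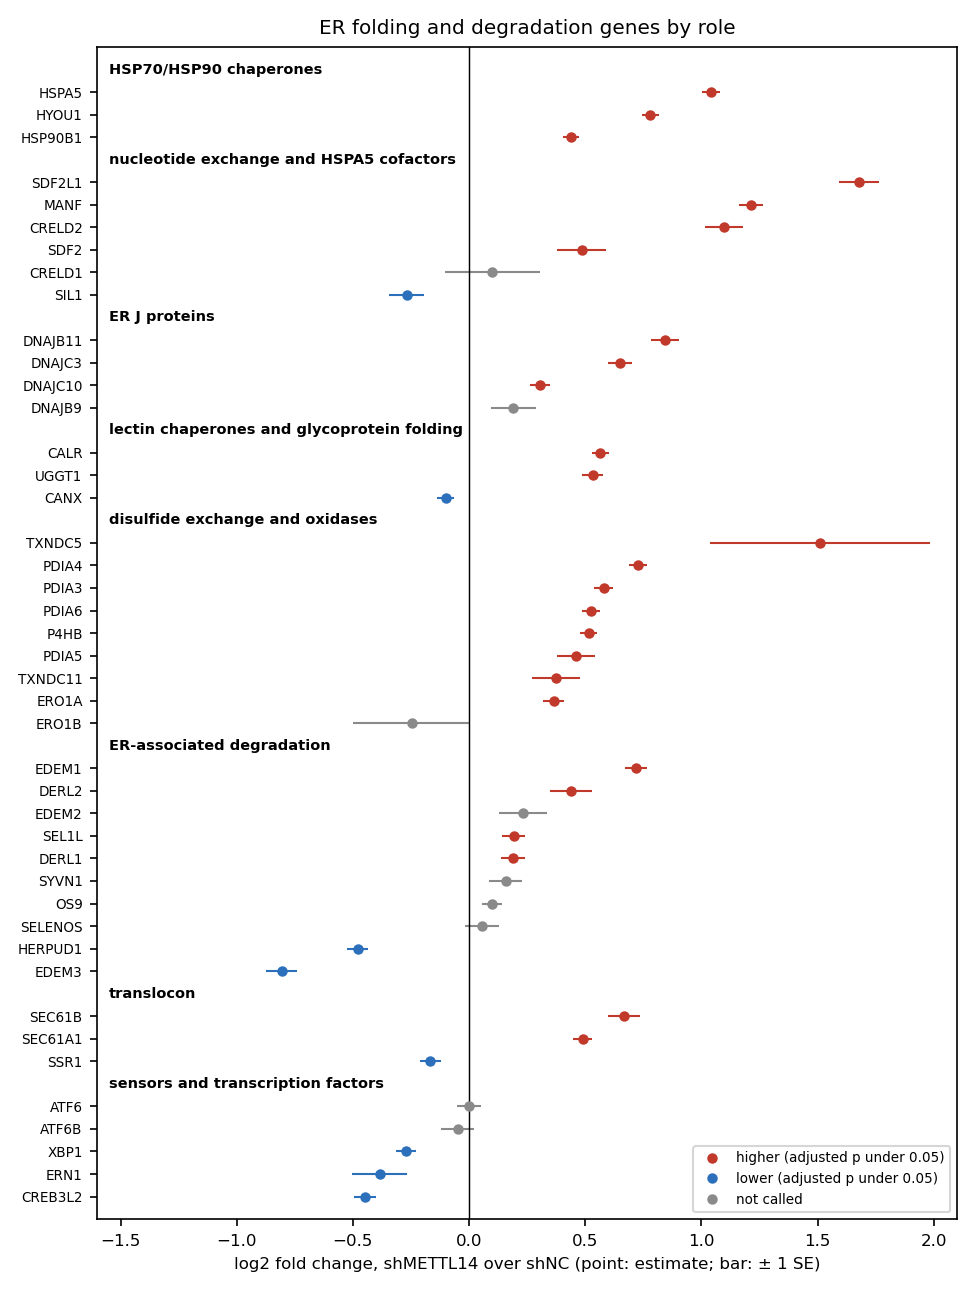
Log2 fold change (shMETTL14 over shNC, x axis) of the 43 tested members, grouped by role; points are edgeR estimates, bars 1 SE, and colours give the call at an adjusted p under 0.05. Chaperones and disulfide enzymes lie mostly to the right of 0, ERAD genes on both sides, and no sensor or transcription factor is called higher.

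The abundance of ER folding mRNA as a whole was larger in the knockdown libraries. The 43 members summed to 6712 and 6838 CPM in the shNC libraries and to 9166 and 9039 CPM in the shMETTL14 libraries, an increase of 34.4%. Without HSPA5 the sums were 6325 and 6437 CPM against 8342 and 8241 CPM. The increase was unevenly spread over roles. The HSP70 and HSP90 chaperones gained 60.9%, the cofactors of HSPA5 86.5%, the disulfide enzymes 48.5% and the ER J proteins 42.8%, whereas the ERAD genes gained 5.33%. The summed level of the sensors and transcription factors was 16.7% lower, with 542 and 553 CPM in the shNC libraries and 463 and 450 CPM in the shMETTL14 libraries.

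HSPA5 (ENSG00000044574, chr9:125234853-125241330, minus strand, GRCh38) encodes BiP, the HSP70 chaperone of the ER lumen, which also keeps the sensors inactive. It had 387 and 402 CPM in the shNC libraries and 824 and 798 CPM in the shMETTL14 libraries. Both knockdown libraries thus lay far above both controls (log2 fold change 1.04, SE 0.0385, edgeR adjusted p 3.1e-15). HYOU1, an HSP110-type chaperone that exchanges nucleotide on BiP, rose from 363 and 364 CPM to 625 and 624 CPM (0.78, SE 0.0372, adjusted p 1.9e-13). HSP90B1, the ER HSP90 also known as GRP94, rose less, by 0.44 (SE 0.0360, adjusted p 1.2e-09). In CPM per kilobase of exon, the mean level of HSPA5 went from 101 to 208, against 288 to 426 in CALR, 182 to 247 in HSP90B1 and 131 to 123 in CANX, so HSPA5 passed CANX and stayed below the other two.

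The largest change of the module was in a cofactor. SDF2L1 (ENSG00000128228, chr22:21642261-21644298, plus strand, GRCh38), a protein-coding gene whose product is a partner of the ER J proteins, rose from 11.8 and 11.4 CPM to 37.4 and 36.8 CPM (log2 fold change 1.68, SE 0.0875, edgeR adjusted p 7.9e-13). Of all genes tested, 0.846% ranked above it by log2 fold change. Its paralog SDF2 rose from 12.3 and 12.1 CPM to 15.9 and 18.2 CPM (0.48, SE 0.106, adjusted p 5.8e-04). MANF, a secreted ER protein that stabilises BiP with its clients, rose from 48.8 and 51.2 CPM to 116 CPM in each knockdown library (1.21, SE 0.0505, adjusted p 2.1e-14). CRELD2, an ER protein with disulfide isomerase activity, rose from 18.0 and 20.6 CPM to 40.3 and 42.2 CPM (1.10, SE 0.0827, adjusted p 3.2e-10). For its paralog CRELD1 the groups overlapped (0.10, SE 0.206, adjusted p 0.709). SIL1, another nucleotide exchange factor of BiP, went the other way, with 33.6 and 34.1 CPM in the controls and 28.4 and 27.8 CPM after knockdown (-0.27, SE 0.0752, adjusted p 0.00477).

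ER J proteins hand substrates to BiP and stimulate its ATPase. DNAJB11 rose from 44.8 and 50.5 CPM to 86.7 and 84.2 CPM (log2 fold change 0.84, SE 0.0587, edgeR adjusted p 9.1e-11). DNAJC3, also known as P58IPK, rose from 73.4 and 69.1 CPM to 108 and 115 CPM (0.65, SE 0.0507, adjusted p 5.6e-10). DNAJC10, which also reduces disulfides, rose by 0.31 (SE 0.0447, adjusted p 5.7e-06). DNAJB9, a well known target of spliced XBP1 that also restrains IRE1, did not pass the test, with 16.1 and 16.8 CPM in shNC against 18.0 and 19.5 CPM in shMETTL14 libraries (0.19, SE 0.0953, adjusted p 0.0988).

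The lectin chaperones split. CALR (calreticulin), the soluble lectin and the most abundant member per kilobase of exon, rose from 778 and 783 CPM to 1166 and 1145 CPM (log2 fold change 0.57, SE 0.0357, edgeR adjusted p 1.8e-11). UGGT1, which reglucosylates unfolded glycoproteins so that the lectins bind them again, rose by 0.53 (SE 0.0454, adjusted p 2.3e-09). CANX (calnexin), the membrane-bound counterpart of CALR, had 810 and 829 CPM in the controls and 762 and 766 CPM after knockdown (-0.10, SE 0.0362, adjusted p 0.0231), and the decrease was not called without the filter on low counts (adjusted p 0.052), without shNC library 2 (-0.08, adjusted p 0.076), or without shMETTL14 library 1 (-0.09, adjusted p 0.16) or library 2 (-0.10, adjusted p 0.14). The promoters of both lectins hold an exact ERSE, shown above.

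Of the 9 enzymes of disulfide exchange, 8 rose and none fell, against 27.2% higher and 25.3% lower among all genes tested. PDIA4 rose from 316 and 330 CPM to 533 and 536 CPM (log2 fold change 0.73, SE 0.0388, edgeR adjusted p 1.1e-12). PDIA3, the partner of the lectins, reached 0.58 and lay just below the 1.5-fold limit of 0.585, followed by PDIA6 (0.52), P4HB (0.51, the founding protein disulfide isomerase) and PDIA5 (0.46). Across these 5 isomerases the fold change over shNC thus ran from 1.38 to 1.66. ERO1A, the oxidase that recharges them, rose by 0.37 (SE 0.0454, adjusted p 6.3e-07), whereas its paralog ERO1B was low, with 67 and 49 reads in shNC and 54 and 43 reads in shMETTL14 libraries, and was not called (-0.25, SE 0.251, adjusted p 0.431). TXNDC11 rose by 0.38 (SE 0.104, adjusted p 0.00434) but was not called with DESeq2 (adjusted p 0.052) or without shNC library 1 (0.27, adjusted p 0.075). TXNDC5 was counted with 6 and 9 reads in shNC and 23 and 20 reads in shMETTL14 libraries. The increase (1.51 on the log2 scale, SE 0.473, adjusted p 0.0105) was not called with DESeq2 (adjusted p 0.086), nor without shNC library 1 (1.22, adjusted p 0.12), shMETTL14 library 1 (1.42, adjusted p 0.10) or shMETTL14 library 2 (1.60, adjusted p 0.054). TXNDC5 shares exons with the readthrough gene BLOC1S5-TXNDC5, and what part this had in its low counts was not tested.

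**Figure D2:**
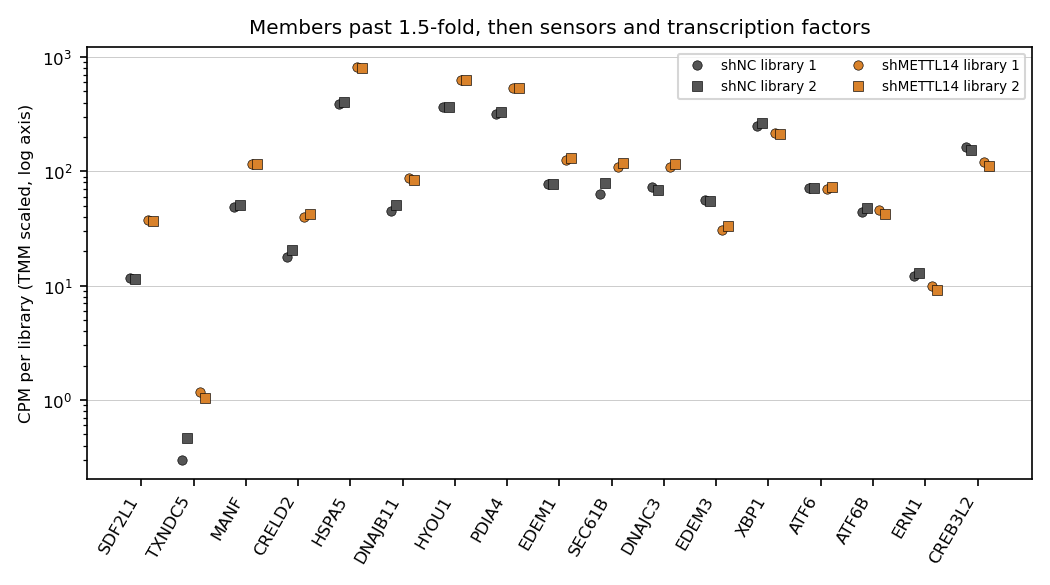
CPM in each of the 4 libraries (log axis) for the 12 members called with at least 1.5-fold change, in order of log2 fold change, followed by the 5 sensors and transcription factors. Circles and squares are libraries 1 and 2; from SDF2L1 to DNAJC3 both shMETTL14 libraries lie above both shNC libraries, in EDEM3, XBP1, ERN1 and CREB3L2 below, and in ATF6 and ATF6B the groups overlap.

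Of the 11 genes of ERAD, 10 could be tested, 4 rose, 2 fell and 4 did not pass the test. Of all genes tested, 27.2% were higher and 25.3% lower, so the ERAD counts lay near the background. EDEM1, a mannosidase-like protein that marks misfolded glycoproteins for disposal, rose from 78.1 and 77.1 CPM to 125 and 130 CPM (log2 fold change 0.72, SE 0.0464, edgeR adjusted p 2.7e-11). Its paralog EDEM3 (ENSG00000116406, chr1:184690231-184754913, minus strand) fell from 56.5 and 55.5 CPM to 30.4 and 33.6 CPM (-0.81, SE 0.0680, adjusted p 1.9e-09), the only member to fall by more than 1.5-fold. The third paralog, EDEM2, had 13.8 and 14.3 CPM against 15.4 and 17.5 CPM (0.23, adjusted p 0.0658) and was called higher without shMETTL14 library 1 (0.32, adjusted p 0.027). HERPUD1, which assembles the ubiquitin ligase complex of ERAD and is a known target of the stress response, fell from 126 and 131 CPM to 91.6 and 92.5 CPM (-0.48, SE 0.0454, adjusted p 1.2e-08). Of the derlins, which help to move substrates out of the ER, DERL2 rose by 0.44 (SE 0.0891, adjusted p 2.8e-04) and DERL1 by 0.19 (SE 0.0514, adjusted p 0.00387), the latter not called with upper quartile scaling (adjusted p 0.053), with DESeq2 (adjusted p 0.051) or without shNC library 1 (0.13, adjusted p 0.068). SEL1L, the adaptor of the ligase, rose by 0.19 (SE 0.0489, adjusted p 0.00217). The ligase SYVN1 (HRD1) had 0.16 (adjusted p 0.0642), the lectin OS9 0.10 (adjusted p 0.0568) and SELENOS 0.05 (adjusted p 0.561).

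Within the translocon, which threads new chains into the ER, the pore subunits SEC61A1 (log2 fold change 0.49, SE 0.0407, edgeR adjusted p 1.6e-09) and SEC61B rose. SEC61B had 63.8 and 79.8 CPM in shNC and 110 and 118 CPM in shMETTL14 libraries (0.67, SE 0.0686, adjusted p 3.9e-08), and its controls were the most widely spaced of the members past 1.5-fold other than TXNDC5. SSR1, of the associated TRAP complex, had -0.17 (SE 0.0461, adjusted p 0.00434) and was not called without shMETTL14 library 2 (-0.10, adjusted p 0.18). The prolyl isomerase FKBP2 had 4 reads or fewer in each library and DERL3 had 2 or fewer, so neither was tested. Of the tested members, 18 share exon bases with another protein-coding gene, and the assignment of reads in the shared stretches is uncertain. These are HSP90B1, SIL1, SDF2, CRELD2, DNAJB9, DNAJB11, CANX, PDIA3, PDIA5, PDIA6, TXNDC5, TXNDC11, SYVN1, DERL1, DERL2, SEC61A1, SSR1 and ATF6B.

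In contrast to the chaperones, no gene that encodes a sensor or transcription factor of the module was called higher. Of the 5 tested, 3 were called lower and 2 were not called, where 27.2% of all genes tested were higher and 25.3% lower. With only 5 genes, the lack of an increase is not far from that background. XBP1 fell from 251 and 267 CPM to 216 and 213 CPM (log2 fold change -0.27, SE 0.0418, edgeR adjusted p 1.1e-05). CREB3L2, an ATF6-like membrane-bound factor, fell from 163 and 153 CPM to 120 and 112 CPM (-0.45, SE 0.0476, adjusted p 6.3e-08). ERN1 had 12.2 and 12.9 CPM in shNC and 9.91 and 9.25 CPM in shMETTL14 libraries (-0.39, SE 0.117, adjusted p 0.00847), a decrease that was not called with DESeq2 (adjusted p 0.082), without shNC library 2 (-0.34, adjusted p 0.054) or without shMETTL14 library 2 (-0.33, adjusted p 0.061). ATF6 had 72.2 and 72.0 CPM in shNC and 70.8 and 73.3 CPM in shMETTL14 libraries, and its estimate of -0.0007 had a 95% interval from -0.10 to 0.10. ATF6B, its paralog, had -0.05 with an interval from -0.19 to 0.09, and the groups overlapped for both. These are levels of whole transcripts: counts per gene do not separate spliced from unspliced XBP1 mRNA, and they do not measure cleavage of ATF6.

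The fold changes were then set beside the promoter elements. Among the 8 members with an exact ERSE, 5 rose (HSPA5, CRELD2, CALR, PDIA6 and HSP90B1), 2 fell (CANX and XBP1) and ERO1B was not called. Their median log2 fold change was 0.48. That of the 33 tested members with a promoter but no ERSE, among them the holders of an ERSE-II, was 0.37. With ERSE and ERSE-II pooled, the median was 0.52 over the 11 members with either element and 0.34 over the 30 tested members without. Members with the same element therefore differed: in HSPA5 the ERSE began 66 bases before the annotated start and in XBP1 52 bases before it, on the gene strand in both. Among the 3 members with an ERSE-II, SDF2L1 and HYOU1 rose and HERPUD1 fell. HYOU1 held another ERSE-II further upstream, which overlapped a UPRE core on the other strand. All 4 members with a UPRE core rose (TXNDC5, HYOU1, TXNDC11 and DNAJC10), with a median of 0.58. For comparison, 60.5% of the tested members and 27.2% of all genes tested were called higher. TXNDC5 and TXNDC11 were not called with DESeq2, and TXNDC5 had few reads. The UPRE core was held by 0.927% of all genes. A further element, TGACGTCA (CRE), was also searched, and its only holder among the members, CREB3L2, fell (-0.45). No test was made of any of these differences, and a match does not show that a factor binds there.

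**Figure D3:**
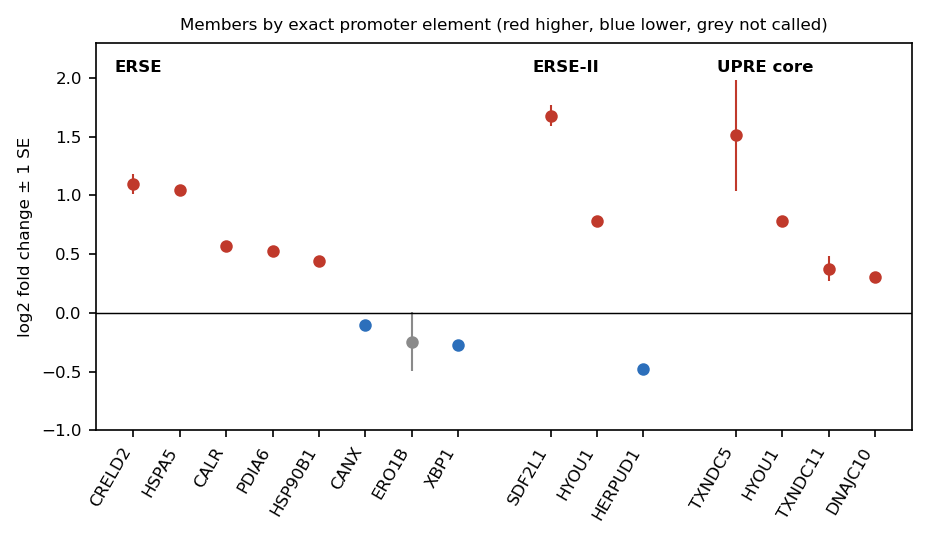
Log2 fold change (shMETTL14 over shNC, y axis, bars 1 SE) of tested members that hold an exact ERSE, ERSE-II or UPRE core in a RefSeq promoter. Red points are called higher, blue lower and grey not called; ERSE and ERSE-II holders lie on both sides of 0, from 1.68 in SDF2L1 to -0.48 in HERPUD1, and HYOU1 appears under 2 elements.

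Other genes of the ER pathway, written as a list of 95 from general knowledge, changed in the same direction on balance but by less. Of 92 tested, 51 rose, 14 fell and 27 did not pass the test, with a median log2 fold change of 0.18. The share that rose was 55.4%, against 27.2% of all genes tested. With a change of at least 1.5-fold also required, 6 of the 92 rose, where 7.44% of all genes tested did. The number of such increases thus lay near the background. Only 1 of the 92 fell by that much, where 11.4% of all genes tested did. By the share called higher, translocation and signal peptidase genes came first (12 of 15), followed by oligosaccharyltransferase and glycan trimming genes (10 of 16). Next came ER to Golgi transport (10 of 18), thiol and prolyl isomerases (8 of 16), other ERAD genes (8 of 19) and genes that activate the factors (3 of 8). In summed level the isomerases gained more (18.4%) than the oligosaccharyltransferase and trimming genes (9.9%). None of the 76 genes of this list with a promoter held an exact ERSE or ERSE-II, and 9 held a UPRE core.

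Among the called genes of that list whose mean log2 CPM reached 2, the 5 largest increases were in PPIB, SELENOK, SEC61G, SEC11C and SEC61A2. PPIB (cyclophilin B), a prolyl isomerase of the lumen, rose from 348 and 393 CPM to 633 and 662 CPM (log2 fold change 0.81, SE 0.0469, edgeR adjusted p 5e-12). SELENOK, an ERAD-associated selenoprotein, had 0.77, the translocon subunits SEC61G and SEC61A2 had 0.72 and 0.68, and the signal peptidase subunit SEC11C had 0.68. PPIB overlaps SNX22 and SEC61A2 overlaps NUDT5, so the reads of these genes may not all be their own. The 5 largest decreases among the same called genes were in CREB3L4, TRAM1, MCFD2, HERPUD2 and TMX4. CREB3L4, another membrane-bound factor of the CREB3 family, fell from 60.3 and 57.9 CPM to 32.3 and 34.9 CPM (-0.81, SE 0.0657, adjusted p 9.5e-10), and it overlaps JTB and SLC39A1. The translocation factor TRAM1 had -0.44, the cargo receptor subunit MCFD2 -0.42, HERPUD2, the paralog of HERPUD1, -0.42 and the thioredoxin TMX4 -0.38. Of the enzymes that activate the factors, the proteases and the ligase were chosen after their values were seen. MBTPS1, which makes the first cut in ATF6, fell by 0.23 (SE 0.0455, edgeR adjusted p 2.4e-04). The protease MBTPS2 (0.02, adjusted p 0.761) and RTCB, which ligates XBP1 mRNA (0.08, adjusted p 0.153), were not called.

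**Figure D4:**
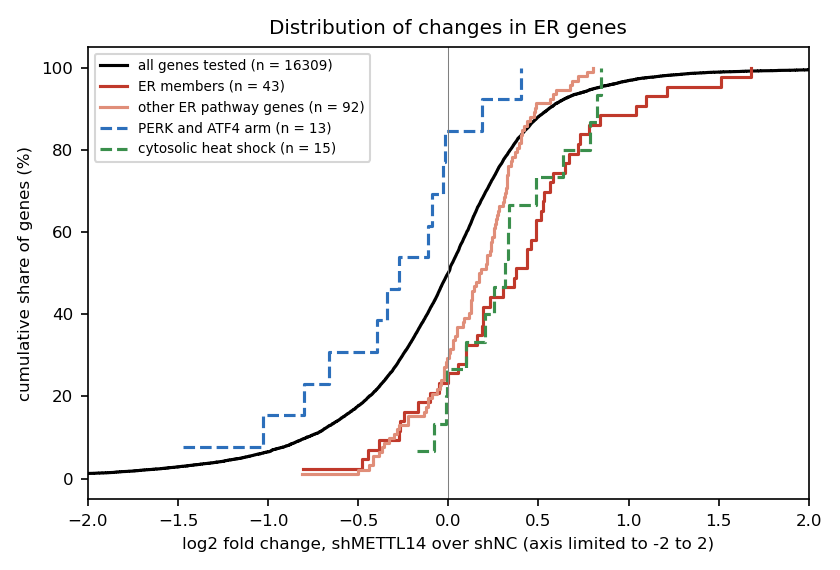
Cumulative share of genes (y axis, %) by log2 fold change (shMETTL14 over shNC, x axis limited to -2 to 2) for all 16309 genes tested, the 43 ER members, the 92 other ER pathway genes, 13 genes of the PERK and ATF4 arm and 15 cytosolic heat shock genes. The medians are -0.0010, 0.38, 0.18, -0.28 and 0.32, in that order.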

How the data were processed

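Values were raw read counts, which the authors deposited for all 4 libraries in a single table keyed by Ensembl gene. The submitters' processing notes name HISAT2 2.1.0, StringTie 1.3.6, HTSeq 0.13.5, edgeR and GRCh38 (hg38), without roles; the annotation release and strand setting are not given in the sources used here. Lines for reads given to no gene, 19.1% to 19.9% of a library, were left out. Of the 43 tested members, 18 share exon bases with another protein-coding gene (GENCODE 29), 14 of them with one on the other strand, where reads may be lost or misassigned.

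Counts were tested on all 16309 genes passing filterByExpr with the quasi-likelihood F-test of edgeR 4.0.16 (R 4.3.3; TMM scaling, group only), with Benjamini-Hochberg adjustment over all of them. Fold changes are shMETTL14 over shNC, and SE is derived from F. CPM is scaled by TMM; levels per kilobase use GENCODE 29 exon length. DESeq2 1.42.0, other scalings and filters, a replicate block and fits without each library were alternatives. The code was also run on simulated data in which few genes changed. That run does not test the scaling in these data, where 52.5% of genes tested were called. An exact permutation test of 2 against 2 libraries cannot go below 0.333. Replicates differed by more than sampling noise (mean chi-square per gene 2.80 in shNC, 2.30 in shMETTL14).

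The members and lists were chosen with earlier results of these data known. All members could be named, with per-library values for those called at 1.5-fold or more and for the sensors; from other lists, up to 5 increases and 5 decreases among called genes whose mean log2 CPM reached 2. Marker lists of fibroblasts, epithelium and immune or endothelial cells were also counted: 8, 4 and 2 of their genes could be tested. C-terminal retrieval signals, planned, were not analysed here.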

Additional observations from a re-analysis of the deposited data

How the results depend on the processing

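Of the 43 tested members, 32 kept their direction and their side of the threshold under all 11 alternative fits. Between 23 and 27 members were called higher over these fits. The count of members called lower was 5 without shMETTL14 library 2 and ranged from 5 to 8 over the fits that each left out 1 library, in which the lone library is assumed to vary like those of the other group; the cause was not tested. The median log2 fold change of the members was 0.31 with upper quartile scaling, which moved all genes by -0.07, and 0.45 without a filter on low counts, where all 45 members entered. Estimates near 0 changed sign: SELENOS to -0.013 with upper quartile scaling, ATF6 to 0.0098 without the filter, 0.0019 without shNC library 2 and 0.0283 without shMETTL14 library 1 (from -0.0174 to 0.0283 when 1 library was left out), and ATF6B to 0.0211 without shNC library 2 and 0.0274 without shMETTL14 library 2 (from -0.1174 to 0.0274), none of them called. With DESeq2, 23 members were higher and 7 lower. METTL14 ranged from -1.33 to -1.21.

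The replicate numbers are only numbers: across genes, the departures from the group mean in libraries sharing a number correlated at -0.0018. With the replicate block, 27 members were higher and 8 lower, the addition being OS9 (adjusted p 0.039). Precision is limited by 2 libraries a group, and in TXNDC5, ERO1B and CRELD1 by low counts.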

Other observations

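The PERK and ATF4 arm of the unfolded protein response, which restrains translation and raises amino acid supply, had the opposite balance to the chaperones. Of 13 genes, all tested, 2 rose and 7 fell, where 27.2% of all genes tested were called higher and 25.3% lower. The median log2 fold change of the 13 genes was -0.28. Their summed level went from 1472 and 1499 CPM in the shNC libraries to 1213 and 1187 CPM in the shMETTL14 libraries. NUPR1, a stress-induced chromatin protein, fell from 6.82 and 9.40 CPM to 2.81 and 3.01 CPM (-1.47, SE 0.192, edgeR adjusted p 1.2e-06). ASNS (asparagine synthetase) had -1.03 (SE 0.105, adjusted p 3.4e-08), STC2 -0.80, CHAC1 -0.66 and ATF3 -0.40, all called lower. PPP1R15A (GADD34), which reverses the translational block, rose by 0.41 (SE 0.0753, adjusted p 1.0e-04). TRIB3 rose by 0.19 (adjusted p 0.0163) but was called in only 6 of 11 alternative fits. The kinase PERK itself (EIF2AK3, -0.02, adjusted p 0.871) and DDIT3 (CHOP, -0.09, adjusted p 0.370) were not called, and ATF4 had -0.28 (SE 0.0375, adjusted p 2.1e-06); these 3 were named after their values were seen.

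The heat shock list, made of cytosolic and mitochondrial chaperones, their cofactors and the transcription factor HSF1, had 11 of 15 genes higher and none lower. HSF1, named after its value was seen, was among those higher (0.33, SE 0.0531, edgeR adjusted p 1.7e-05). Among all genes tested, 27.2% were higher and 25.3% lower. The share of the heat shock list called higher, 73.3%, was above the 60.5% of the tested ER members. At least 1.5-fold increases were called in 4 of its 15 genes and in 11 of the 43 tested ER members, where 7.44% of all genes tested had them. The median of the heat shock list was 0.32, against 0.38 in the ER members. Its summed level rose by 7.10%, less than the 34.4% of the ER members. Of the 3 genes with the highest CPM, HSP90AA1 rose from 1472 and 1469 CPM to 1768 and 1737 CPM (0.25, SE 0.0346, edgeR adjusted p 2.3e-06), whereas HSP90AB1 and HSPA8 had -0.01 each and were not called; these 3 were named after their values were seen. The largest increases were in HSPE1 (0.85), HSPA1B (0.83), HSPA1A (0.79), DNAJA1 (0.64) and HSPH1 (0.49). HSPA1A and HSPA1B are near-identical copies and HSPE1 shares exons with HSPE1-MOB4, so how reads were split between them is uncertain. The differences between these lists and the ER members were not tested.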
